A study of Mus musculus with 26 samples.

Results

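CD73-positive photoreceptor precursors sorted from mouse retina at postnatal day 6 (P6) were compared with cells of the same CD73 gate at postnatal day 4 (P4). The comparison rests on 4 of the 26 libraries of the series, 2 for P6 and 2 for P4, chosen by their labels and gate. All of these cells came from C57BL/6 mice with EGFP fused by knock-in to the N-terminal end of BLIMP1, the protein of Prdm1, on both alleles, so no group carries an unmodified Prdm1. P6 and P4 cells were both gated on CD73 alone with an APC-conjugated antibody after 0.1% trypsin and 1 mM EDTA, and the reporter was not part of that gate. The other retinal sorts of the same genotype were CD73-positive cells at P10, reporter-positive CD73-negative cells at P4 and reporter-positive cells at P0, each with 2 libraries. Each library was a 3' RNA-seq library made from 1 ng of total RNA, and values are in RPM, read counts scaled to a common library size. No label states whether the libraries of a group came from separate or pooled animals, so the p-values refer to the spread between these samples alone, which may be technical.

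In the mouse, rods leave the cell cycle well before they build outer segments, the stacks of membrane discs in which light is caught. CD73 (Nt5e), a cell surface nucleotidase, marks rod precursors, and the transcription factors OTX2, CRX, NRL and NR2E3 specify them. Bipolar cells, the interneurons that receive the photoreceptor signal, are among the last retinal neurons to be made, and BLIMP1 is known in mouse retina for restraining the bipolar fate in photoreceptor precursors.

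Expression was taken as log2(RPM + 1), a scale that understates the change of low genes, and 10804 genes reaching 5 RPM in 2 or more of the 4 libraries were tested with limma across the 10 retinal libraries. A gene was called at a Benjamini-Hochberg adjusted p under 0.05 and a log2 fold change of 1 or more in size. By this rule 182 genes (1.68%) rose and 135 (1.25%) fell in P6 cells relative to P4 cells, with a median log2 fold change of 0.00 over all tested genes. Of the 182 that rose, 65 passed the filter through the P6 libraries alone, and 40 of the 135 that fell passed through the P4 libraries alone, so these genes had to differ. The P6 and P4 replicates did not overlap in 5260 of the tested genes (48.7%), and in each of the 317 called. Depth, read from the smallest step of the values, was 2.73 and 2.58 M reads in the P6 libraries, against 4.24 and 3.78 M reads in the P4 libraries. 1 read was thus worth 0.366 and 0.387 RPM in P6 cells, against 0.236 and 0.265 RPM in P4 cells. The counts rest on single libraries: without P4 replicate 2 there were 109 rises and 38 falls, without P6 replicate 1 there were 96 and 54, and without P6 replicate 2 there were 72 and 54.

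The labelled cell type was checked first. The 24 rod phototransduction genes summed to 21878 and 19119.8 RPM in P6 cells, against 17424 and 13792 RPM in P4 cells and 4224 and 4027 RPM in the P4 CD73-negative sort. Nt5e itself stood at 258 and 269 RPM in P6 cells, against 323 and 225 RPM in P4 cells, and the replicates overlapped. Its log2 fold change was -0.03 ± 0.27 (SE; limma adjusted p 0.97), and without P4 replicate 1 it was 0.23. The 14 Müller glia markers summed to 1500.0 and 1444 RPM in P6 cells, against 1334 and 1653 RPM in P4 cells, and the 20 amacrine, horizontal and ganglion cell markers to 288 and 273 RPM, against 280.1 and 292 RPM. The 20 endothelial, pericyte and fibroblast markers summed to 81.1 and 88.2 RPM in P6 cells, against 134 and 179.9 RPM in P4 cells. Most of this was Kdr alone, with 60.4 and 69.3 RPM in P6 cells, against 110 and 152 RPM in P4 cells. Of the 20, 18 were too low to test. The 15 microglia markers summed to 45.1 and 53.4 RPM in P6 cells, against 29.1 and 23.7 RPM in P4 cells. The 11 pigment epithelium markers summed to 17.0 and 14.3 RPM in P6 cells, against 21.7 and 23.0 RPM in P4 cells. Of these sums, Tyrp1 alone had 6.22 and 7.35 RPM in P6 cells, against 16.3 and 17.2 RPM in P4 cells. The 20 lens markers, 13 of them at 0 in both libraries of either age, summed to 22.0 and 33.1 RPM, against 9.90 and 6.35 RPM.

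**Figure D1:**
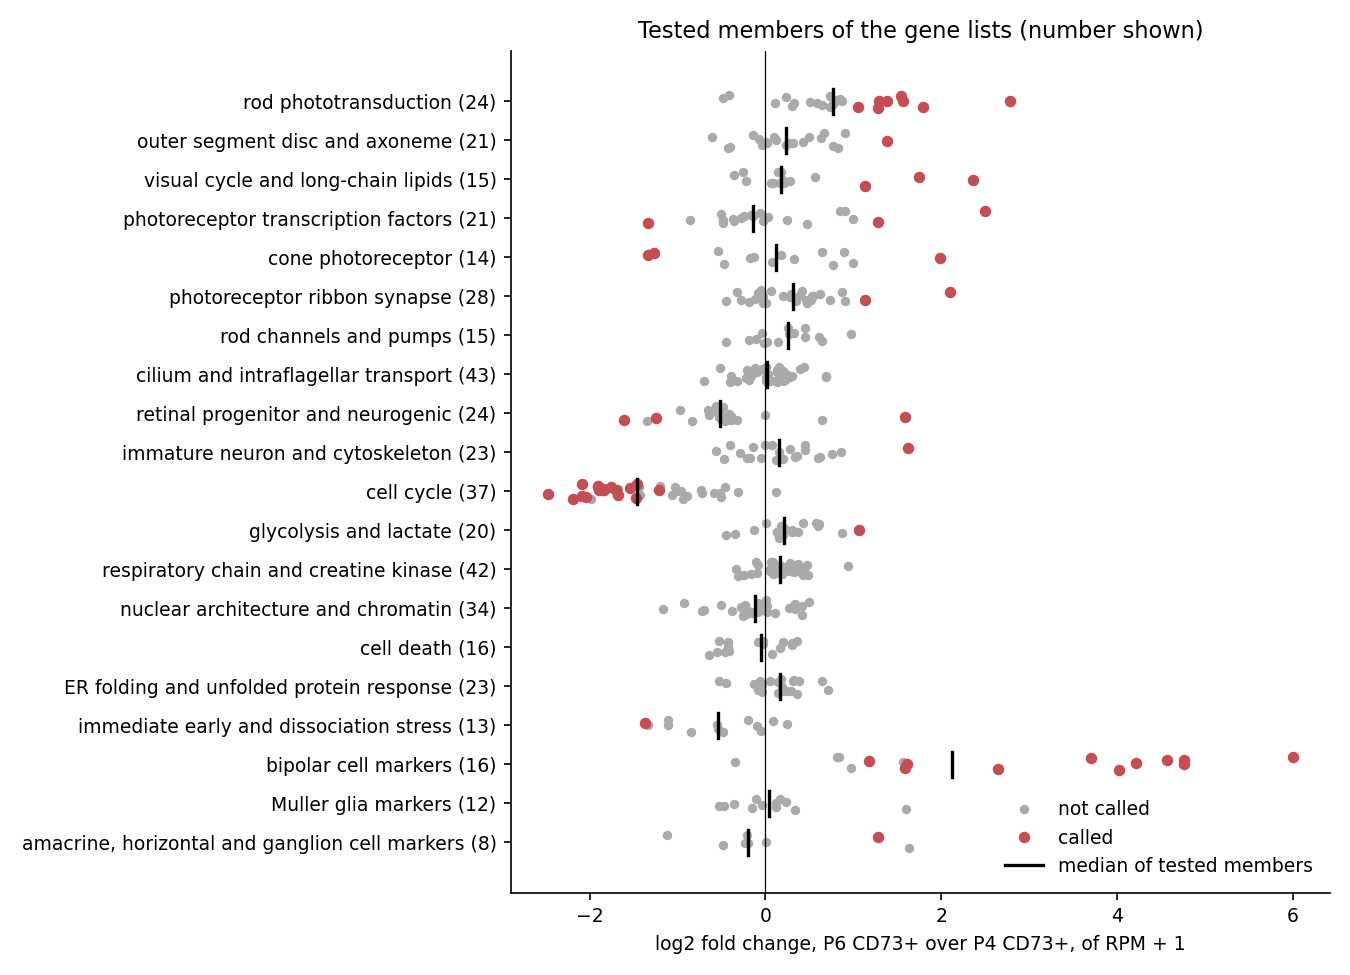
Each point is 1 tested member of a gene list and shows its log2 fold change of RPM + 1, P6 CD73+ over P4 CD73+ (horizontal axis); red points were called and black bars are medians, with Trpm1 left out because it was listed at 0 in both P4 libraries. Bipolar markers lie furthest to the right, up to 6.00, and cell cycle genes furthest to the left, down to -2.47.

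Bipolar cell genes rose most. Of 20 bipolar markers, 17 were tested and 12 rose, with a median log2 fold change of 2.64 over the 17 tested and of 2.13 without Trpm1, beside 1.68% of all tested genes that rose. Of the 17, 7 passed the filter through the P6 libraries alone, 6 of them among the 12, so the count and median are a description. Summed, the 20 markers reached 1556 and 1629 RPM in P6 cells, against 438 and 378 RPM in P4 cells and 718 and 527 RPM in the P4 CD73-negative sort. In bulk samples a larger number of bipolar-type cells within the gate and more of this RNA per cell cannot be told apart.

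The mGluR6 cascade, with which ON bipolar cells sense glutamate, was among the genes that rose. Grm6, its receptor (chr11:50850369-50866208, RefSeq GRCm38.p6), had 68.8 and 90.2 RPM in P6 cells, against 0.236 and 0.265 RPM in P4 cells. Both P4 values equal 1 read, and both P6 libraries stood far above them. Its log2 fold change, 6.00 ± 0.52 (limma adjusted p 7.5e-06), was the largest of all called genes. Trpm1, the cation channel that the receptor gates, had 21.2 and 27.1 RPM in P6 cells and was listed at 0 in both P4 libraries. Gpr179, an orphan receptor of the same cascade, had 31.1 and 39.9 RPM in P6 cells, against 0.471 and 2.38 RPM in P4 cells (log2 fold change 4.02 ± 0.49, adjusted p 0.00017). All 3 genes were at or near 0 in the P4 libraries. They passed the filter through the P6 libraries alone, so they had to be higher there.

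The upstream window of Grm6 is shown because this gene changed most; it was chosen after its values were seen. It covers the 250 bases before the transcript start used in the RefSeq promoter table, chr11:50850435-50850684 on the plus strand (GRCm38.p6), written 5′ to 3′. This start is not the outermost one: the window lies within the span that RefSeq gives for the whole gene, as printed above.
Grm6: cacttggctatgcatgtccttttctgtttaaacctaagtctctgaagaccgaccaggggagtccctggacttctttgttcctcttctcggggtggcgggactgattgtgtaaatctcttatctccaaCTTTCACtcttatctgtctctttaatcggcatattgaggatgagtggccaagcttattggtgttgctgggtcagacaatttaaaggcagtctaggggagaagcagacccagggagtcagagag
Windows were searched on both strands for TAATCC (a core of CRX sites), TGCTGAC (part of an NRL site) and GTGAAAG (a core of BLIMP1 sites), none of which contains another. Capitals mark 1 match to GTGAAAG, read on the opposite strand, from -123 to -117 relative to that transcript start. Of 32851 windows of this length, 6.25% hold TAATCC, 3.81% TGCTGAC, 3.57% GTGAAAG and 13.0% any of them; a match is a description of letters, not of binding.

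Transcription factors of bipolar cells rose too. Isl1, a factor of ON bipolar and other retinal neurons (chr13:116298270-116309688), had 149 and 156 RPM in P6 cells, against 9.66 and 5.42 RPM in P4 cells, and rose with a log2 fold change of 4.21 ± 0.33 (adjusted p 3.8e-06). Vsx1, a factor of cone bipolar subtypes, had 38.4 and 51.5 RPM in P6 cells, against 2.59 and 0.0265 RPM in P4 cells (log2 fold change 4.57 ± 0.59, adjusted p 0.00027). Both P6 libraries stood far above both P4 libraries in Isl1. Vsx1 passed the filter through the P6 libraries alone, so it had to be higher there. Bhlhe23, a factor of rod bipolar cells, had 68.4 and 64.2 RPM in P6 cells, against 5.19 and 0 RPM in P4 cells, and 1 P4 library held none (log2 fold change 4.76 ± 0.67, adjusted p 0.00048).

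Among the other markers, Scgn, a calcium-binding protein of cone bipolar cells, had 76.5 and 68.9 RPM in P6 cells, against 2.59 and 1.06 RPM in P4 cells (log2 fold change 4.76 ± 0.55, adjusted p 9.2e-05). Tmem215 (log2 fold change 3.70), Grik1, a kainate receptor subunit of OFF bipolar cells (2.64), Cabp5, a calcium-binding protein (1.61), and Pcp2 (1.17) rose as well. Scgn and Grik1 passed the filter through the P6 libraries alone, so they had to be higher there. The remaining 5 tested markers were not called. Of these, Prkca, the protein kinase that marks rod bipolar cells, had 104 and 96.0 RPM in P6 cells, against 64.3 and 47.9 RPM in P4 cells and a log2 fold change of 0.83 ± 0.18 (adjusted p 0.011), which is under the fold limit. Lhx4 (0.81), Gng13 (0.97), Rgs11 (1.57) and Lrit3 (-0.34) ran from above to below 0. Nyx, Car8 and Sebox, at most 5.86 RPM in any P6 library, were too low to test.

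**Figure D2:**
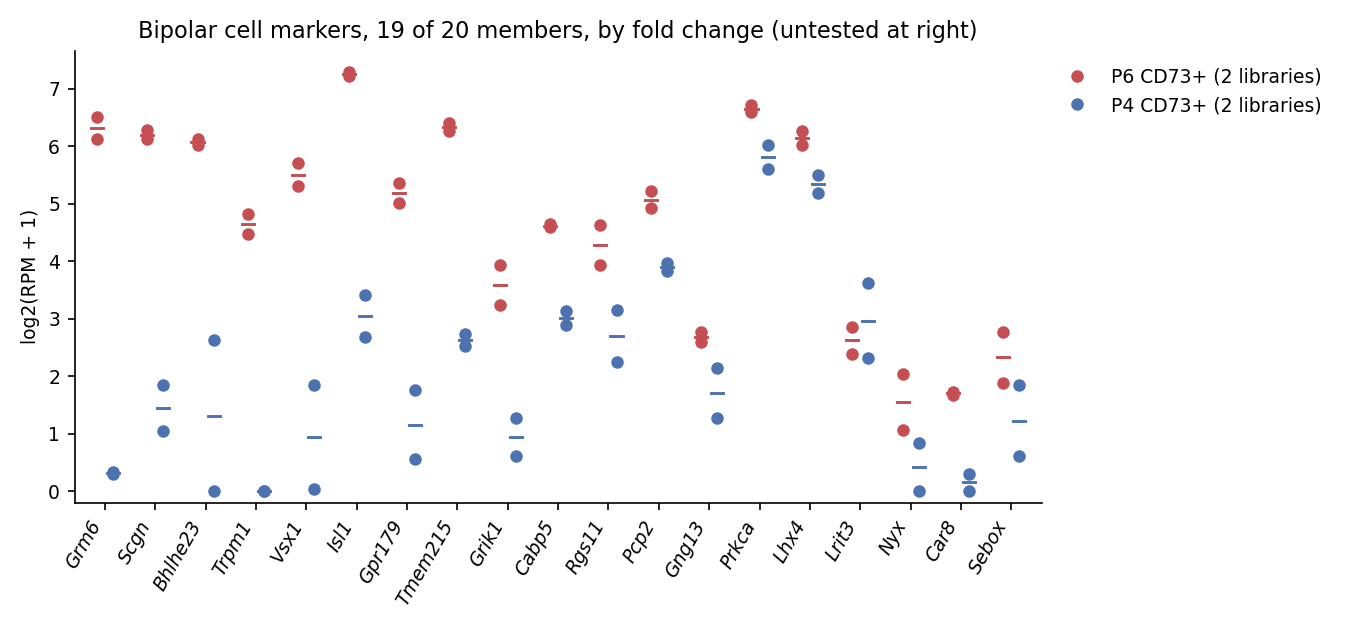
Level of 19 of the 20 bipolar cell markers as log2(RPM + 1) (vertical axis) in P6 CD73+ (red) and P4 CD73+ (blue) libraries; points are libraries, bars are means, genes are ordered by fold change and the 3 untested genes stand at the right. Both P6 libraries lie above both P4 libraries from Grm6 to Lhx4, while Lrit3 overlaps.

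Further genes with the largest rises were outside the marker lists. Trnp1, a nuclear protein studied in neural progenitors of the cortex, had 109 and 134 RPM in P6 cells, against 3.77 and 1.59 RPM in P4 cells (log2 fold change 5.11 ± 0.47, adjusted p 1.1e-05). Pcp4, a calmodulin-binding peptide, had 189 and 161 RPM in P6 cells, against 15.8 and 5.55 RPM in P4 cells (4.06 ± 0.43, adjusted p 4.4e-05). Gabrr1, a subunit of GABA receptors, had 26.9 and 21.1 RPM in P6 cells, against 0.471 and 0 RPM in P4 cells (4.36 ± 0.45, adjusted p 4.3e-05), and Car10, a carbonic anhydrase-related protein, had 47.6 and 40.2 RPM in P6 cells, against 2.12 and 1.34 RPM in P4 cells (4.05 ± 0.36, adjusted p 8.6e-06). The P6 and P4 libraries of Pcp4 were well separated. Trnp1, Gabrr1 and Car10, like Gm3893 below, passed the filter through the P6 libraries alone, so they had to be higher there. Gm3893, a transcribed pseudogene whose reads may be shared with near-identical copies, had 32.7 and 78.8 RPM in P6 cells, against 0 and 1.38 RPM in P4 cells, so its level is uncertain. Its call (log2 fold change 5.07 ± 0.83, adjusted p 0.0018) was lost without P6 replicate 2, where the log2 fold change was 4.45.

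Rod phototransduction genes stood higher in P6 cells, by less than the bipolar markers. All 24 members were tested, 8 rose and none fell, beside 1.68% of tested genes that rose; the median log2 fold change was 0.76, and 22 of the 24 lay above 0. Only 1 of the 8, Slc24a1, passed the filter through the P6 libraries alone. The summed bipolar markers moved with these genes, as given above, and their part in the rod values was not tested. The count of 8 was 3 without P4 replicate 2, 3 without P6 replicate 1 and 4 without P6 replicate 2.

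Near the head of the cascade, Rcvrn, the calcium sensor recoverin that holds back the kinase GRK1 (chr11:67695326-67703355), had 883 and 689 RPM in P6 cells, against 305 and 233 RPM in P4 cells (log2 fold change 1.55 ± 0.18, adjusted p 0.00012). Grk1, the gene of that kinase, had 67.0 and 68.5 RPM in P6 cells, against 25.5 and 19.3 RPM in P4 cells (log2 fold change 1.57 ± 0.34, adjusted p 0.014). The P6 libraries stood above the P4 libraries in both genes, but the call of Grk1 was lost without P4 replicate 2 (1.38), P6 replicate 1 (1.58) or P6 replicate 2 (1.55). Rgs9bp, which anchors the GTPase-accelerating protein RGS9, had 149 and 159 RPM in P6 cells, against 75.5 and 52.0 RPM in P4 cells (log2 fold change 1.28 ± 0.25, adjusted p 0.0069). Pde6a, a catalytic subunit of the phosphodiesterase, had 38.4 and 47.6 RPM in P6 cells, against 22.2 and 18.3 RPM in P4 cells (log2 fold change 1.05 ± 0.28, adjusted p 0.041).

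On the calcium and cyclic GMP side of the cascade, Slc24a1 and Gucy2f had the largest rod fold changes. Slc24a1, the rod sodium, calcium and potassium exchanger (chr9:64922861-64951620), had 11.3 and 10.4 RPM in P6 cells, against 0.943 and 0.529 RPM in P4 cells (log2 fold change 2.79 ± 0.44, adjusted p 0.0015). Guca1b, a guanylate cyclase activator, had 11.3 and 12.4 RPM in P6 cells, against 5.19 and 3.44 RPM in P4 cells (log2 fold change 1.29 ± 0.36, adjusted p 0.049). Gucy2f, a retinal guanylate cyclase, had 28.5 and 35.6 RPM in P6 cells, against 8.48 and 8.46 RPM in P4 cells (log2 fold change 1.80 ± 0.41, adjusted p 0.018). Both P6 libraries were above both P4 libraries in Guca1b and Gucy2f. Slc24a1 passed the filter through the P6 libraries alone, so it had to be higher there. The call of Gucy2f was lost when any of the 4 libraries was left out, with log2 fold changes of 1.80 without P4 replicate 1, 1.79 without P4 replicate 2, 1.95 without P6 replicate 1 and 1.64 without P6 replicate 2.

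Among the rod phototransduction and outer segment genes that rose, the windows of Gucy2f, Slc24a1 and Grk1 were searched, and that of Gucy2f is printed because it held a motif, which the other two did not. The window is chrX:142196937-142197186, minus strand (RefSeq, GRCm38.p6), and ends at the base before the transcript start of the promoter table. It too lies within RefSeq's span for the whole gene, chrX:142079286-142197276.
Gucy2f: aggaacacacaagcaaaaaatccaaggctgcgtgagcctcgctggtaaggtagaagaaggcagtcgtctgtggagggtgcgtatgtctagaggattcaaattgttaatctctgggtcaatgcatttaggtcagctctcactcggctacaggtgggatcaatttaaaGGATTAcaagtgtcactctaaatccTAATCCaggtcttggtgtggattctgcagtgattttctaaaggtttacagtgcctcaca
Capitals mark 2 matches to TAATCC, the first on the opposite strand from -84 to -79 and the second on the gene's strand from -59 to -54. The share of windows with TAATCC was 6.25%, as given for Grm6.

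Most other members of the cascade were not called. Gnat1, the rod transducin alpha subunit, had 81.2 and 63.9 RPM in P6 cells, against 46.2 and 38.9 RPM in P4 cells (log2 fold change 0.75 ± 0.25, adjusted p 0.11). Sag, rod arrestin (0.85), Gngt1, the transducin gamma subunit (0.88), Pde6g, the inhibitory phosphodiesterase subunit (0.78), and Aipl1, a chaperone of the phosphodiesterase (0.73), passed the adjusted p but not the fold limit. Pdc, phosducin, which binds transducin beta and gamma, had 4143 and 3123 RPM in P6 cells, against 5563 and 4538 RPM in P4 cells (log2 fold change -0.48 ± 0.16, adjusted p 0.093). It was 1 of only 2 members below 0.

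**Figure D3:**
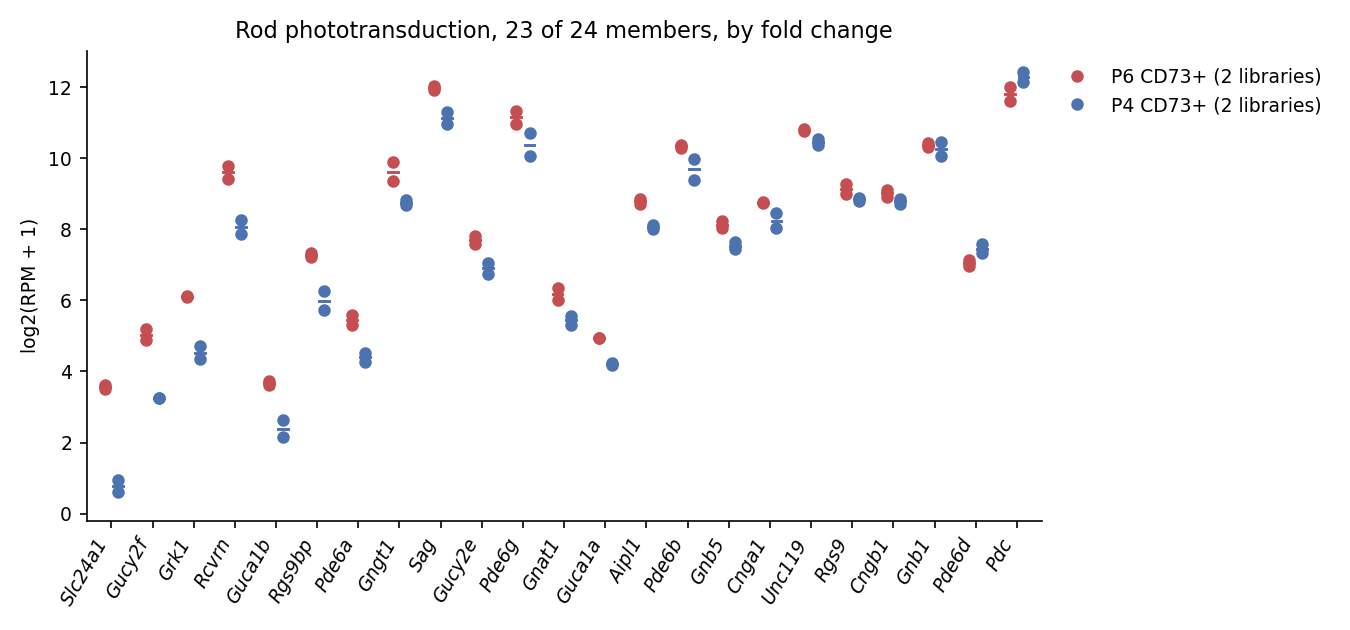
Level of 23 of the 24 rod phototransduction genes as log2(RPM + 1) (vertical axis) in P6 CD73+ (red) and P4 CD73+ (blue) libraries, ordered by fold change; points are libraries and bars are means. The P6 libraries stand above the P4 libraries from Slc24a1 to Cngb1, Gnb1 overlaps, and Pde6d and Pdc lie lower in P6 cells.

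The medians of the outer segment and retinoid lists lay nearer to 0. Of 23 outer segment genes, 21 were tested, 1 rose and none fell (median 0.23), beside 1.68% of tested genes that rose. Prph2, a structural protein of the disc rim, had 1125 and 1058 RPM in P6 cells, against 885 and 680.1 RPM in P4 cells and was not called (log2 fold change 0.49 ± 0.18, adjusted p 0.14). Of 16 visual cycle and lipid genes, 15 were tested and 3 rose (median 0.18), beside the same 1.68%. All 3 were short-chain dehydrogenases or reductases that act on retinoids. Dhrs3 had 68.4 and 60.4 RPM in P6 cells, against 20.3 and 16.9 RPM in P4 cells (log2 fold change 1.74 ± 0.27, adjusted p 0.0013), Rdh12 had 264 and 228 RPM in P6 cells, against 134 and 91.8 RPM in P4 cells (1.13 ± 0.24, adjusted p 0.012), and Rdh8 had 8.42 and 9.29 RPM in P6 cells, against 1.41 and 0.529 RPM in P4 cells (2.36 ± 0.50, adjusted p 0.012). The replicates of Dhrs3 and Rdh12 did not overlap between the ages. Rdh8 passed the filter through the P6 libraries alone, so it had to be higher there. The calls of Rdh12 and Rdh8 were lost without P4 replicate 2 (0.86 and 2.03), P6 replicate 1 (1.03 and 2.42) or P6 replicate 2 (1.24 and 2.29).

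The rod-specifying transcription factors were not called. Nrl, which directs rod over cone fate, had 3100.3 and 2729 RPM in P6 cells, against 2625 and 2278 RPM in P4 cells (log2 fold change 0.25 ± 0.14, adjusted p 0.39). Crx, a factor of both photoreceptor types, had 1944 and 1618 RPM in P6 cells, against 2448 and 2144 RPM in P4 cells (-0.37 ± 0.21, adjusted p 0.39). Otx2, which acts upstream of Crx, had 1127 and 1106 RPM in P6 cells, against 1308 and 1330.5 RPM in P4 cells (-0.24 ± 0.12, adjusted p 0.33). These fold changes were small, although neither Nrl, Crx nor Otx2 overlapped between the ages. Nr2e3, which represses cone genes in rods, had 729 and 644 RPM in P6 cells, against 855 and 674 RPM in P4 cells, with overlapping replicates (-0.15 ± 0.16, adjusted p 0.71; 0.02 without P4 replicate 1). Prdm1 (chr10:44437174-44528558), whose protein carries the reporter, had 146 and 164 RPM in P6 cells, against 288 and 275 RPM in P4 cells, lower in both P6 libraries. Its log2 fold change of -0.86 ± 0.12 (adjusted p 0.00065) passed the adjusted p and missed the fold limit.

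Over the whole list of 23 photoreceptor transcription factors, 21 were tested, 2 rose and 1 fell (median -0.15), beside 2.93% of tested genes called in either direction. Esrrb, an orphan nuclear receptor of rods, had 28.9 and 16.6 RPM in P6 cells, against 7.07 and 1.06 RPM in P4 cells (log2 fold change 2.49 ± 0.51, adjusted p 0.0092). Prdm8, a relative of Prdm1 that acts in rod bipolar cells of the mouse, had 59.3 and 92.2 RPM in P6 cells, against 24.4 and 36.8 RPM in P4 cells (1.27 ± 0.23, adjusted p 0.0039). Rxrg, a retinoid receptor of cones, fell, with 37.0 and 34.5 RPM in P6 cells, against 99.3 and 84.0 RPM in P4 cells (-1.33 ± 0.26, adjusted p 0.0064). The P6 and P4 libraries of these 3 genes did not overlap. The call of Esrrb was lost without P4 replicate 2 (1.51) or P6 replicate 1 (2.11), that of Prdm8 without P4 replicate 1 (0.99) or P6 replicate 2 (0.96), and that of Rxrg without P4 replicate 1 (-1.21), P6 replicate 1 (-1.38) or P6 replicate 2 (-1.28).

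Of 17 cone genes, 14 were tested, 1 rose and 2 fell (median 0.12), beside 1.68% of tested genes that rose and 1.25% that fell. Rxrg, given above, was 1 of those that fell. Arr3, cone arrestin, had 43.9 and 44.1 RPM in P6 cells, against 13.4 and 7.94 RPM in P4 cells (log2 fold change 1.99 ± 0.38, adjusted p 0.0057). Ccdc136, a neighbour of Opn1sw on chromosome 6, had 247 and 329.7 RPM in P6 cells, against 697 and 677 RPM in P4 cells (log2 fold change -1.26 ± 0.18, adjusted p 0.00066). Arr3 was higher and Ccdc136 lower in both P6 libraries, and Arr3 lost its call without P4 replicate 2 (1.64), P6 replicate 1 (1.99) or P6 replicate 2 (1.98). Opn1sw, the short-wavelength opsin, had 179 and 244 RPM in P6 cells, against 169 and 234 RPM in P4 cells, with overlapping replicates (0.07 ± 0.23, adjusted p 0.92; -0.16 without P4 replicate 1 and -0.15 without P6 replicate 2).

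Single genes of the synapse, of glycolysis and of immature neurons rose, beside 1.68% of tested genes that rose. Of 29 ribbon synapse genes, 28 were tested and 2 rose (median 0.32), both linked to the presynaptic calcium channel. Cabp4, which tunes that channel, had 20.1 and 15.5 RPM in P6 cells, against 4.60 and 2.38 RPM in P4 cells (log2 fold change 2.10 ± 0.38, adjusted p 0.0042), and Cacnb2, its beta subunit, had 63.0 and 70.0 RPM in P6 cells, against 39.1 and 22.5 RPM in P4 cells (1.13 ± 0.30, adjusted p 0.041). Cabp4 passed the filter through the P6 libraries alone, so it had to be higher there. Cabp4 lost its call without P4 replicate 2 (1.74) or P6 replicate 1 (1.92). Cacnb2 lost its call without P4 replicate 2 (0.75), P6 replicate 1 (1.21) or P6 replicate 2 (1.06). Of 20 glycolysis genes tested, 1 rose (median 0.21): Hk1, the hexokinase of brain and retina, with 213 and 153 RPM in P6 cells, against 93.8 and 78.3 RPM in P4 cells (1.07 ± 0.18, adjusted p 0.0023), a call lost without P4 replicate 2 (0.94) or P6 replicate 1 (0.83). Crmp1, a microtubule-associated protein of growing axons, was the only 1 of 23 tested genes of immature neurons to rise, with 162 and 191 RPM in P6 cells, against 45.5 and 69.6 RPM in P4 cells (1.63 ± 0.18, adjusted p 8.4e-05). No member was called among 15 rod channels and pumps (median 0.26), 43 tested cilium genes (0.02), 42 respiratory chain genes (0.17), 34 chromatin genes (-0.12), 16 cell death genes (-0.05) and 23 genes of ER folding (0.16). Their most abundant members had log2 fold changes of -0.04 for Atp1b2 (rod sodium pump subunit), -0.11 for Arl6 and 0.05 for Bbs4 (ciliary trafficking), and 0.08 for Atp5b and 0.22 for Ckb (ATP synthase and creatine kinase). Hmgn1 (0.50) and Hmgn2 (-0.06), which bind nucleosomes, Mcl1 (-0.03), which holds back apoptosis, and the ER chaperones Hspa5 (0.39) and Hsp90b1 (0.16) were likewise not called. Lbr, the lamin B receptor whose loss goes with the inverted rod nucleus, had 41.7 and 51.5 RPM in P6 cells, against 41.5 and 54.0 RPM in P4 cells, overlapping between the ages (-0.03 ± 0.21, adjusted p 0.96; 0.16 without P4 replicate 2 and 0.12 without P6 replicate 1).

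Cell cycle genes fell. Of 41, 37 were tested, 18 fell and none rose, beside 1.25% of tested genes that fell; the median log2 fold change was -1.46, and 36 of the 37 lay below 0. Summed, the 41 genes came to 825 and 824 RPM in P6 cells, against 1341 and 2387 RPM in P4 cells. Both P6 libraries were lower, and the P4 libraries differed from each other, replicate 2 holding the more. The same was seen in the P4 CD73-negative sort, with 1326 and 2271 RPM. The count of 18 falls was 2 without P4 replicate 2, 4 without P6 replicate 1, 4 without P6 replicate 2 and 26 without P4 replicate 1.

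Top2a, the topoisomerase of dividing cells (chr11:98992947-99024199), had 17.9 and 17.0 RPM in P6 cells, against 70.9 and 145 RPM in P4 cells (log2 fold change -2.47 ± 0.35, adjusted p 0.00061). Mki67, the proliferation antigen Ki-67, had 14.6 and 16.6 RPM in P6 cells, against 47.5 and 117 RPM in P4 cells (-2.19 ± 0.43, adjusted p 0.0068). Cdk1, the mitotic kinase, had 9.88 and 8.13 RPM in P6 cells, against 26.2 and 64.8 RPM in P4 cells (-2.08 ± 0.44, adjusted p 0.012). P4 replicate 2 was more than 2 times P4 replicate 1 in each of these, yet both were above the P6 libraries. Rrm2, a subunit of ribonucleotide reductase, had 1.83 and 1.55 RPM in P6 cells, against 7.78 and 13.8 RPM in P4 cells (-2.08 ± 0.46, adjusted p 0.015), and Pbk, a mitotic kinase outside the list, had 6.59 and 6.97 RPM in P6 cells, against 25.7 and 66.1 RPM in P4 cells (-2.44 ± 0.45, adjusted p 0.0045). Kntc1, of the kinetochore, had 0.366 and 1.16 RPM in P6 cells, against 6.13 and 9.52 RPM in P4 cells (-2.33 ± 0.44, adjusted p 0.0054). Rrm2 and Kntc1 passed the filter through the P4 libraries alone, so they had to be lower in P6 cells. Top2a was called whichever library was left out. Without P4 replicate 2 the calls of Mki67 (-1.55), Cdk1 (-1.45), Rrm2 (-1.71), Pbk (-1.78) and Kntc1 (-2.05) were lost. Without P6 replicate 1 the same 5 were lost (-2.10, -2.21, -2.16, -2.41 and -2.00), and without P6 replicate 2 Mki67 (-2.28), Cdk1 (-1.96), Rrm2 (-2.01) and Pbk (-2.48).

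**Figure D4:**
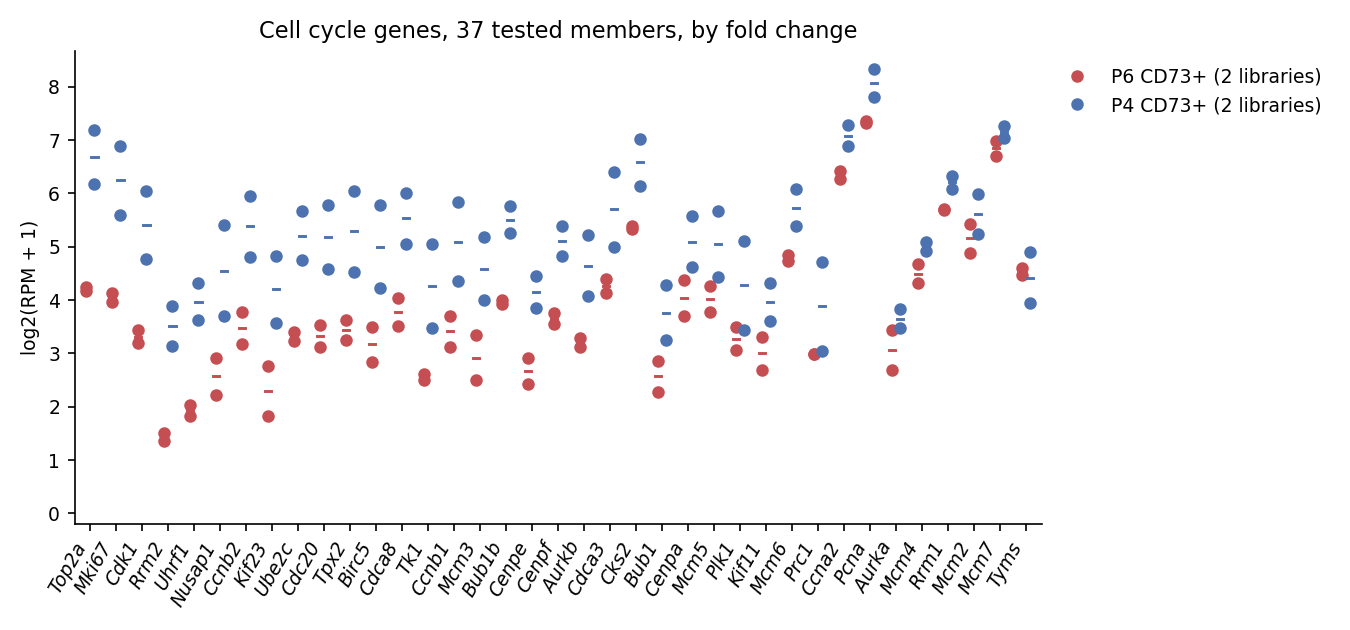
Level of the 37 tested cell cycle genes as log2(RPM + 1) (vertical axis) in P6 CD73+ (red) and P4 CD73+ (blue) libraries, ordered by fold change; points are libraries and bars are means. From Top2a to Mcm3 both P6 libraries lie below both P4 libraries, and the 2 P4 libraries lie apart from each other.

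Of 26 genes of retinal progenitors, 24 were tested, 2 fell and 1 rose, beside 1.25% of tested genes that fell and 1.68% that rose; the median was -0.52 and 22 of 24 lay below 0. Ccnd1, the cyclin of retinal progenitors, had 119 and 99.8 RPM in P6 cells, against 201 and 334 RPM in P4 cells (log2 fold change -1.25 ± 0.29, adjusted p 0.02), and Foxn4, a factor of amacrine and horizontal cell progenitors, had 2.93 and 2.71 RPM in P6 cells, against 7.54 and 14.8 RPM in P4 cells (-1.61 ± 0.35, adjusted p 0.014). P6 libraries were lower in Ccnd1. Foxn4 passed the filter through the P4 libraries alone, so it had to be lower in P6 cells. Both calls were lost without P4 replicate 2 (-0.88 and -1.16), P6 replicate 1 (-1.37 and -1.65) or P6 replicate 2 (-1.12 and -1.57). Hes5, a Notch target, had 55.6 and 52.2 RPM in P6 cells, against 66.2 and 109.8 RPM in P4 cells, lower in both P6 libraries but not called (-0.65 ± 0.23, adjusted p 0.12). Of 13 tested immediate early genes, 1 fell: Jund, an AP-1 subunit, with 21.2 and 30.0 RPM in P6 cells, against 56.2 and 79.6 RPM in P4 cells (-1.37 ± 0.33, adjusted p 0.024). Its call was lost without P4 replicate 2 (-1.12), P6 replicate 1 (-1.13) or P6 replicate 2 (-1.61). The 22 immediate early genes summed to 597 and 679 RPM in P6 cells, against 836 and 809 RPM in P4 cells.

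The largest falls lay side by side on chromosome 11. Of the 12 largest, 9 were on that chromosome, where 25 of 889 tested genes fell (2.81%), beside 1.25% of all tested genes. Of the 9, 6 lay in 1 stretch, chr11:94755129-94849593 (GRCm38.p6). Their reads may be shared, as given below, so the 6 may not be separate falls. Within this stretch, Gm11546 had 4.39 and 4.84 RPM in P6 cells, against 279 and 262 RPM in P4 cells, the lowest fold change of all (log2 -5.60 ± 0.26, limma adjusted p 3.7e-09). AA623943 had 25.4 and 43.3 RPM in P6 cells, against 467 and 404 RPM in P4 cells (log2 -3.67 ± 0.29, adjusted p 3.8e-06), and Tmem92, a transmembrane protein gene, had 2.99 and 4.19 RPM in P6 cells, against 64.6 and 48.1 RPM in P4 cells (log2 -3.64 ± 0.45, adjusted p 0.00018). Both P6 libraries were far below both P4 libraries in AA623943. Gm11546 and Tmem92, like Gm11543, Gm11544 and Gm11545 below, passed the filter through the P4 libraries alone, so they had to be lower in P6 cells. Gm11544 (-3.72), Gm11545 (-3.58) and Gm11543 (-3.01) fell too, and so did Pdk2, a pyruvate dehydrogenase kinase further along at chr11:95026258-95041371, with 60.8 and 53.4 RPM in P6 cells, against 190.2 and 161 RPM in P4 cells (log2 -1.60 ± 0.17, adjusted p 4.4e-05).

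The genes of that stretch are similar in sequence, so reads may have been shared among them and single levels are uncertain. RefSeq types all 6 as protein coding, whereas GENCODE types the 5 other than Tmem92 as unprocessed pseudogenes. The GENCODE transcripts of these 5 were identical over 78.4 to 97.2% of aligned positions in the 10 pairs; Tmem92 matched each over 81.8 to 97.2% of 167 to 181 positions. The window of AA623943, the most abundant of them, is shown because this stretch fell most, and was chosen after the values were seen. It is chr11:94817652-94817901 on the minus strand (RefSeq, GRCm38.p6).
AA623943: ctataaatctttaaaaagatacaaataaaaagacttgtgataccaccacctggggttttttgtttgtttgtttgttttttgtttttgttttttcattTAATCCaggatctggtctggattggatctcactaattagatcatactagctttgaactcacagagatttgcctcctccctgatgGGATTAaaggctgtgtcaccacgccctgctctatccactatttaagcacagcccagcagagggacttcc
Capitals mark 2 matches to TAATCC, from -153 to -148 on the gene's strand and from -69 to -64 on the opposite strand.

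Other large falls were single genes. St14, the membrane serine protease matriptase, had 1.10 and 1.16 RPM in P6 cells, against 22.4 and 27.0 RPM in P4 cells (log2 fold change -3.59 ± 0.31, adjusted p 7.5e-06). Jmjd4, an oxygenase of the Jumonji family, had 0 and 1.16 RPM in P6 cells, against 9.19 and 9.79 RPM in P4 cells (-2.83 ± 0.43, adjusted p 0.0011), and Lrrc48, a component of motile axonemes, had 4.03 and 6.58 RPM in P6 cells, against 35.1 and 29.9 RPM in P4 cells (-2.44 ± 0.32, adjusted p 0.00028). The P4 values were many times the P6 values in all 3. St14 and Jmjd4 passed the filter through the P4 libraries alone, so they had to be lower in P6 cells. At higher levels, Shisa2, an inhibitor of Wnt and FGF receptor maturation, had 219 and 217 RPM in P6 cells, against 592 and 467 RPM in P4 cells (-1.26 ± 0.17, adjusted p 0.00028), and Kcne1l, a potassium channel accessory subunit, had 128 and 119.7 RPM in P6 cells, against 286 and 260.4 RPM in P4 cells (-1.14 ± 0.16, adjusted p 0.00049).

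Markers of other cell types were called in 2 cases, beside 2.93% of tested genes called in either direction. Prox1, a factor of horizontal, amacrine and some bipolar cells, had 47.6 and 43.0 RPM in P6 cells, against 12.7 and 25.4 RPM in P4 cells (log2 fold change 1.28 ± 0.28, adjusted p 0.013), and was the 1 of 8 tested amacrine, horizontal and ganglion cell markers to rise. Cryab, a small heat shock protein of the lens that retina also expresses, had 15.4 and 20.1 RPM in P6 cells, against 4.71 and 2.38 RPM in P4 cells (2.08 ± 0.41, adjusted p 0.0072), and was the only lens marker tested. Cryab passed the filter through the P6 libraries alone, so it had to be higher there. Prox1 lost its call without P4 replicate 1 (0.81), P6 replicate 1 (1.21) or P6 replicate 2 (1.35). Cryab lost its call without P4 replicate 2 (1.70) or P6 replicate 2 (1.90). Lists this short may hold no call at a share of 2.93%. None of the 12 tested Müller glia, 4 microglia, 3 erythroid, 2 endothelial and 1 pigment epithelium markers was called. Among the most abundant of these, log2 fold changes were -0.04 for Car2 and 0.33 for Rlbp1 (Müller glia), 1.08 for Csf1r and -0.35 for Cd68 (microglia), -0.99 for Kdr and -0.80 for Egfl7 (endothelium) and -1.19 for Tyrp1 (pigment epithelium). Hba-a1, an alpha globin, had 6.40 and 28.1 RPM in P6 cells, against 5.66 and 0 RPM in P4 cells and was not called (adjusted p 0.057), and the 7 erythroid markers summed to 16.8 and 67.3 RPM in P6 cells, against 21.1 and 1.06 RPM in P4 cells.

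The next interval of the same gate, P10 over P6, was fitted in the same model. It spans 4 days against 2 and shares the P6 libraries, so a deviation of a P6 library moves both steps, in opposite directions. The difference of the steps was tested in the same model. Between P10 and P6, 302 genes (2.80%) rose and 850 (7.87%) fell, with a median of -0.14 over all tested genes. Under quantile normalization, which moved that median to about 0, 418 rose and 532 fell. Under median-of-ratios scaling 400 rose and 670 fell. Rises numbered 201 without P6 replicate 1. Of the 24 rod phototransduction genes 18 rose and none fell, and of 37 cell cycle genes 23 fell.

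Rod genes differed in when they rose. Rcvrn had 3795 and 4321 RPM in P10 cells, against 883 and 689 RPM in P6 cells (log2 fold change 2.37 ± 0.18, adjusted p 2.8e-07). Gnat1, not called between P6 and P4, had 1689 and 2972 RPM in P10 cells, against 81.2 and 63.9 RPM in P6 cells (4.94 ± 0.25, adjusted p 1.0e-08), and Pdc, lower in P6 than in P4 cells, had 9498 and 9142 RPM, against 4143 and 3123 RPM (1.37 ± 0.16, adjusted p 1.5e-05). The difference of the steps, P6 over P4 minus P10 over P6, was -4.19 ± 0.44 for Gnat1 (adjusted p 6.4e-05), -1.85 ± 0.27 for Pdc (0.00091) and -0.83 ± 0.32 for Rcvrn (0.16). Bipolar genes took several courses: of the 17 tested, 6 rose and 1 fell between P10 and P6 (median 0.73). Trpm1 had 151 and 167 RPM in P10 cells, against 21.2 and 27.1 RPM in P6 cells (2.68 ± 0.40, adjusted p 0.0002), and Pcp2 (2.33) and Cabp5 (1.94) also rose in this step as in the one before. Gng13 (2.44), Lrit3 (2.03) and Prkca (1.12) rose in this step and had not been called in the one before. Grm6 had 160.3 and 108 RPM in P10 cells, against 68.8 and 90.2 RPM in P6 cells (0.73 ± 0.52, adjusted p 0.35). Its steps differed by 5.26 ± 0.91 (adjusted p 0.003). Grm6 was named for its large first step, which favoured such a difference, so the value is a description. Vsx1 was the marker that fell, with 13.8 and 11.4 RPM in P10 cells, against 38.4 and 51.5 RPM in P6 cells (-1.74 ± 0.59, adjusted p 0.045).

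Some genes that fell in P6 cells were higher again at P10. Gm11546 had 56.8 and 31.9 RPM in P10 cells, against 4.39 and 4.84 RPM in P6 cells (2.96 ± 0.26, adjusted p 1.4e-06), Lrrc48 had 39.7 and 49.1 RPM, against 4.03 and 6.58 RPM (2.87 ± 0.32, adjusted p 1.3e-05), and Jmjd4 had 9.61 and 6.39 RPM, against 0 and 1.16 RPM (2.59 ± 0.43, adjusted p 0.00049). The steps differed by -8.55 ± 0.45 (adjusted p 2.6e-08), -5.31 ± 0.56 (6.4e-05) and -5.43 ± 0.75 (0.00063) in these. All were named for their large falls in the first step, and the P6 values enter both steps. Their selection favoured a negative difference, so these values are a description. Over all tested genes, 307 (2.84%) were called with a higher and 114 (1.06%) with a lower first step than second; without P6 replicate 1 these were 77 and 31, without P6 replicate 2 they were 58 and 31, and under quantile normalization 254 and 183. Gm3893 had 0.19 and 0.336 RPM in P10 cells, near its P4 level.

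**Figure D5:**
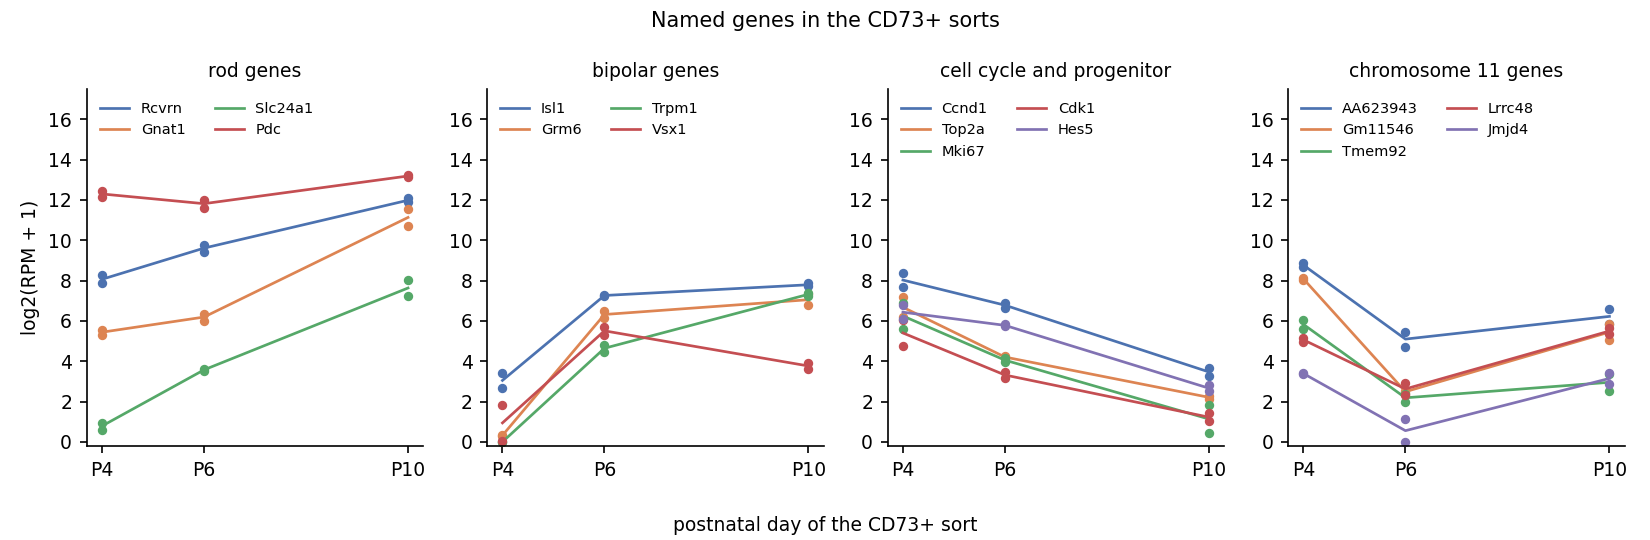
Level of named genes as log2(RPM + 1) (vertical axis) by day of the CD73+ sort, P4, P6 or P10 (horizontal axis); points are libraries and lines join the means of 2 libraries. Rod genes other than Pdc are higher at each later day, the bipolar genes shown step up between P4 and P6, and the chromosome 11 genes are lowest at P6.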

How the data were processed

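The deposited table holds an expression signal in RPM that the authors computed, per the file headers. Per the submitters' processing notes, the build was mm10 and the tools included Bowtie 1.0.1, Cufflinks 2.2.0, TopHat 1.4.1 and cutadapt 1.11; how reads shared between genes were handled is not given. Below 20.5 reads, 82.6 to 85.1% of values in the 4 libraries were whole reads (within 0.02), so the signal was not treated as counts. Of 26310.0 lines, 1072 gene lines shifted against the header and 92 spike-in lines were left out, and 25146 were used.

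Tests were moderated limma-trend tests (limma 3.58.1, R 4.3.3) on log2(RPM + 1) of the 10 retinal libraries in 5 groups, two-sided, adjusted by Benjamini-Hochberg over 10804 genes with at least 5 RPM in 2 of the 4 libraries. Replicates of an age correlated at 0.97 over genes and differed by more than counting error (mean chi-square per gene 3.87 at P6 and 6.51 at P4). Positions came from RefSeq GRCm38.p6 (10608 genes matched).

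Genes were named by rule: the 12 largest changes in each direction, the 5 most abundant called genes in each direction, up to 4 called members of each of the 25 lists (or the 2 most abundant where none was called), and a short set of photoreceptor genes; others are said to be chosen after their values were seen or are members of a list described whole. Some genes are counted in the lists but not reported by name here. The genes, lists and tests were chosen with earlier results of these data known. The test was tried on simulated data with known changes.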

Additional observations from a re-analysis of the deposited data

Results flagged for a closer look

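The gene lines left out because their values stand shifted against the header were set back under it, and 209 of them then passed the filter and 5 were called, a signal in lines outside the main comparison. All 5 belong to lines moved back by 2 columns, and no annotation used here gives them a role. LOC100862170 had 10.0 and 23.6 RPM in P6 cells, against 0 and 0.291 RPM in P4 cells (log2 fold change 3.86). LOC100862228 (3.83) and LOC100862237 (3.98) had nearly the same values. LOC100862035 had 6.22 and 7.74 RPM in P6 cells, against 0.943 and 1.85 RPM in P4 cells (1.75). LOC100861907 was lower, with 10.2 and 5.03 RPM in P6 cells, against 19.3 and 35.7 RPM in P4 cells (-1.73). The position of these lines was inferred from the values, so they are listed as values only.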

How the results depend on the processing

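Values under 1 RPM rest on few reads at these depths. The 182 rises became 101 with a filter of 20 RPM, 119 with no filter, 279 with no minimum fold and 72 to 145 when 1 library was left out; the 135 falls became 61, 46, 240 and 38 to 136. Between P10 and P6, the 850 falls became 514 with a pseudocount of 5, 497 with a filter of 20 RPM, 532 under quantile normalization, 1635 with no minimum fold and 615 to 852 without 1 library. The 302 rises there became 181 with a filter of 20 RPM, 665 with no minimum fold and 201 to 305 without 1 library. For the difference of the steps, 307 and 114 became 139 and 55 with no filter, 58 to 336 and 31 to 99 without 1 library, and the 114 became 183 under quantile normalization. The 18 cell cycle falls became 11 with a filter of 20 RPM, 2 with no filter and 2 to 26 without 1 library. The 8 rod rises became 5 over all 26 samples, 4 with a pseudocount of 0.5, 5 with a filter of 20 RPM, 3 with no filter, 13 with no minimum fold and 3 to 7 without 1 library. The 12 bipolar rises stayed between 10 and 14 under every alternative run. The cause was not tested; a higher filter tests fewer genes.

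Of 83 named genes, 54 were called, and 22 of these lost the call without 1 library, as given above. Signs turned only in genes not called. Without 1 library in turn, log2 fold changes ran from -0.058 to 0.16 for Bbs4, from -0.12 to 0.046 for Car2, from -0.98 to 0.28 for Cd68, from -0.14 to 0.017 for Hmgn2 (0.19 under quantile normalization), from -0.22 to 0.16 for Lbr, from -0.089 to 0.038 for Mcl1, from -0.32 to 0.024 for Nr2e3, from -0.30 to 0.23 for Nt5e and from -0.16 to 0.30 for Opn1sw. With the replicate number as a block, 188 genes rose and 146 fell, and 312 of the 317 calls were shared. The labels do not pair the libraries. Deviations of same-numbered libraries correlated at 0.31 over genes between the P4 CD73+ and P4 CD73-negative sorts, both in the fit. In the other 9 pairs of groups they correlated at -0.026 to 0.064, the P6 and P4 CD73+ pair at 0.064. Whether same-numbered P6 and P4 CD73+ libraries were handled together is not stated by the labels, and these correlations cannot show it.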

Other observations

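Transcription factors of bipolar and other retinal interneurons outside the fixed lists, chosen after their values were seen, were also called. Lhx3, a LIM factor of cone bipolar subtypes, had 22.3 and 28.2 RPM in P6 cells, against 3.77 and 0.794 RPM in P4 cells (log2 fold change 3.16 ± 0.42, limma adjusted p 0.00028). Fezf2 had 33.3 and 32.5 RPM in P6 cells, against 3.06 and 6.08 RPM in P4 cells (2.66 ± 0.30, adjusted p 7.3e-05), and Irx6, an Iroquois factor of OFF bipolar subtypes, had 30.7 and 22.1 RPM in P6 cells, against 4.95 and 5.82 RPM in P4 cells (2.09 ± 0.56, adjusted p 0.042). Zfhx3 had 44.5 and 44.5 RPM in P6 cells, against 5.85 and 6.41 RPM in P4 cells, and Zfhx4 had 33.3 and 47.2 RPM in P6 cells, against 7.31 and 9.52 RPM in P4 cells. Both P6 libraries stood above both P4 libraries in all 5 genes. The replicates did not overlap in any of the 317 called genes or in 48.7% of all tested genes, so this adds nothing to the calls.

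Some receptor and channel genes were called as well, again chosen after their values were seen, with no list or test behind the choice. Of those named here, Gabrb2, Gria2 and Hcn3, like Lhx3 above, passed the filter on low values through the P6 libraries alone, so they had to be higher there. Gabrb2, a GABA-A receptor subunit, had 12.8 and 14.7 RPM in P6 cells, against 0 and 4.76 RPM in P4 cells (log2 fold change 2.62 ± 0.59, adjusted p 0.017), and Gabrr3, of the family of Gabrr1, had 11.7 and 17.4 RPM in P6 cells, against 5.19 and 0.529 RPM in P4 cells (2.31). Gria2, an AMPA receptor subunit, had 11.3 and 24.0 RPM in P6 cells, against 4.48 and 2.45 RPM in P4 cells (2.02), and Hcn3, a cyclic nucleotide-gated channel, had 22.3 and 17.0 RPM in P6 cells, against 2.83 and 1.85 RPM in P4 cells (2.63). Among the falls, Epha8, an ephrin receptor, had 63.0 and 63.5 RPM in P6 cells, against 277 and 282 RPM in P4 cells (log2 fold change -2.13 ± 0.29, adjusted p 0.00036).

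Called genes within 200 kb of each other formed 19 runs with 45 genes in all, and 15 of the runs were of 1 direction. The same count was not made over all tested genes. These numbers therefore do not tell whether called genes lie closer together than others. Besides the chromosome 11 run of 7, Klhl33, Osgep and Pnp rose side by side on chromosome 14 (log2 fold changes 3.17, 1.27 and 1.72). Osgep, a tRNA-modifying enzyme subunit, had 557 and 477 RPM in P6 cells, against 229 and 199 RPM in P4 cells. Pnp, purine nucleoside phosphorylase, had 224 and 162 RPM in P6 cells, against 55.9 and 58.3 RPM in P4 cells. Klhl33 had 37.3 and 48.8 RPM in P6 cells, against 5.89 and 2.42 RPM in P4 cells. In P10 cells, Klhl33 (0.779 and 1.68 RPM) and Pnp (30.8 and 29.9 RPM) were below their P4 values. Osgep had 442 and 438 RPM in P10 cells and was not called between P10 and P6.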
